A study of Mus musculus with 24 samples.

Results

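The genes described here encode the subunits of the receptors for glutamate, GABA and glycine, the main fast transmitters of the spinal cord, in mice with experimental autoimmune encephalomyelitis (EAE). They were chosen by gene symbol, from the glutamate receptor names Gria, Grik, Grid, Grin and Grm, the GABA receptor names Gabra, Gabrb, Gabrg, Gabrd, Gabre, Gabrq and Gabbr, and the glycine receptor names Glra and Glrb. The rule used no measured value, and it found 40 of the 17097 genes measured, of which 22 encode glutamate, 13 GABA and 5 glycine receptor subunits. Where a gene had several probe sets, the one with the highest mean was used.

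RNA of whole spinal cords was measured on 24 Affymetrix arrays, 1 per mouse, with 5 wild-type naive mice, 5 wild-type recipients of Th1 cells, 5 wild-type recipients of Th17 cells, 5 naive mice labelled Act1 KO and 4 Th17 recipients labelled Act1 KO. Recipients were irradiated with 500 rad and given cells from MOG-immunized mice (lymph node cells in the labels, with splenocytes added in the paper), which had been cultured towards Th1 with IL-12 and an antibody to IL-23 or towards Th17 with IL-23. Naive mice were left untreated, so irradiation and transferred cells cannot be told apart in any comparison of recipients with naive mice. Symptom onset is the time of collection in the labels and the disease peak in the paper, which states that all mice of the study were adult, age-matched females. The allele behind the Act1 KO label, and the cells in which it acts, are not given for these arrays in the sources used here.

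Glutamate excites neurons through 3 kinds of ion channel, the AMPA, kainate and NMDA receptors, and through metabotropic receptors coupled to G proteins. GABA and glycine inhibit them through chloride channels, and GABA also through the G protein-coupled GABA-B receptor. Each channel is assembled from several subunits, and in the spinal cord these receptors carry the sensory input to the dorsal horn and the excitation and inhibition of motor neurons. Astrocytes and cells of the oligodendrocyte lineage use some of the same subunits.

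Values are on the log2 scale, and each unit is a doubling. Array medians lay between 3.46 and 3.57, and 15 of the 40 genes had a mean over all arrays below the middle of these medians (3.52), near the background. No detection call came with the values, and a difference that ends in a group near this level is a lower bound. Traf3ip2, the gene that encodes Act1, was not lower in the cords labelled Act1 KO. It stood between 5.38 and 5.92 in naive mice with that label, between 5.59 and 5.83 in Th17 recipients with that label and between 4.07 and 4.60 in naive wild-type mice. The range was 5.005 to 5.32 in Th1 and 5.14 to 5.56 in Th17 recipients of wild type. Where its probe set lies relative to the altered part of the gene is not given in the sources used here, so the labels are used as given and not as checked. Markers of infiltrating leukocytes, 13 genes with a mean level of 3.30 to 3.44 in naive wild-type cords, reached 6.81 to 7.29 in Th1 and 7.55 to 7.86 in Th17 recipients. In Th17 recipients labelled Act1 KO this mean was 3.30 to 3.40, the level of the naive mice. Th1 recipients 4 and 5 stood apart from the other 3 on the first principal component. The total counts of receptor genes called in Th1 recipients and between Th17 and Th1 recipients are given with and without both. Other counts that rest on the Th1 group include both. The title of each sample holds a code whose meaning is not given. Wild-type naive and Th17 arrays shared 4 letters of that code, and 27 of the 28 genes called lower below were also lower within each of the 4. These are the arrays that gave the calls, so this is no separate test of the code. The share over all genes was not computed.

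In wild-type cords, 28 of the 40 receptor genes fell in Th17 recipients and none rose. Of the 22 glutamate receptor genes 17 fell, of the 13 GABA receptor genes 9 and of the 5 glycine receptor genes 2. Across all 17097 genes 43.5% were called in this comparison, 25.5% lower and 18.0% higher (limma, adjusted p under 0.05). The median difference of the 40 genes was −0.63, against −0.05 over all genes. In 25 of the 28 the groups did not overlap, and over all genes Th17 recipients lay below the naive mice without overlap in 20.0%. In Th1 recipients 25 of the 40 fell and none rose, where 40.8% of all genes were called, 24.1% lower and 16.7% higher, and the median difference was −0.50 against −0.06 over all genes. Without Th1 recipients 4 and 5 the count was 26. Both comparisons share the naive mice, and 24 genes were called in both, which is 85.7% of the Th17 calls and 96% of the Th1 calls. Of the 25 genes above 3.52, 24 were called lower in Th17 recipients, and of the 15 below it 4 were. Among all 10774 genes above 3.52, 37.7% were called lower. In tissue RNA, fewer cells that carry a receptor, less of its RNA per cell and more RNA from other cells cannot be told apart.

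**Figure D1:**
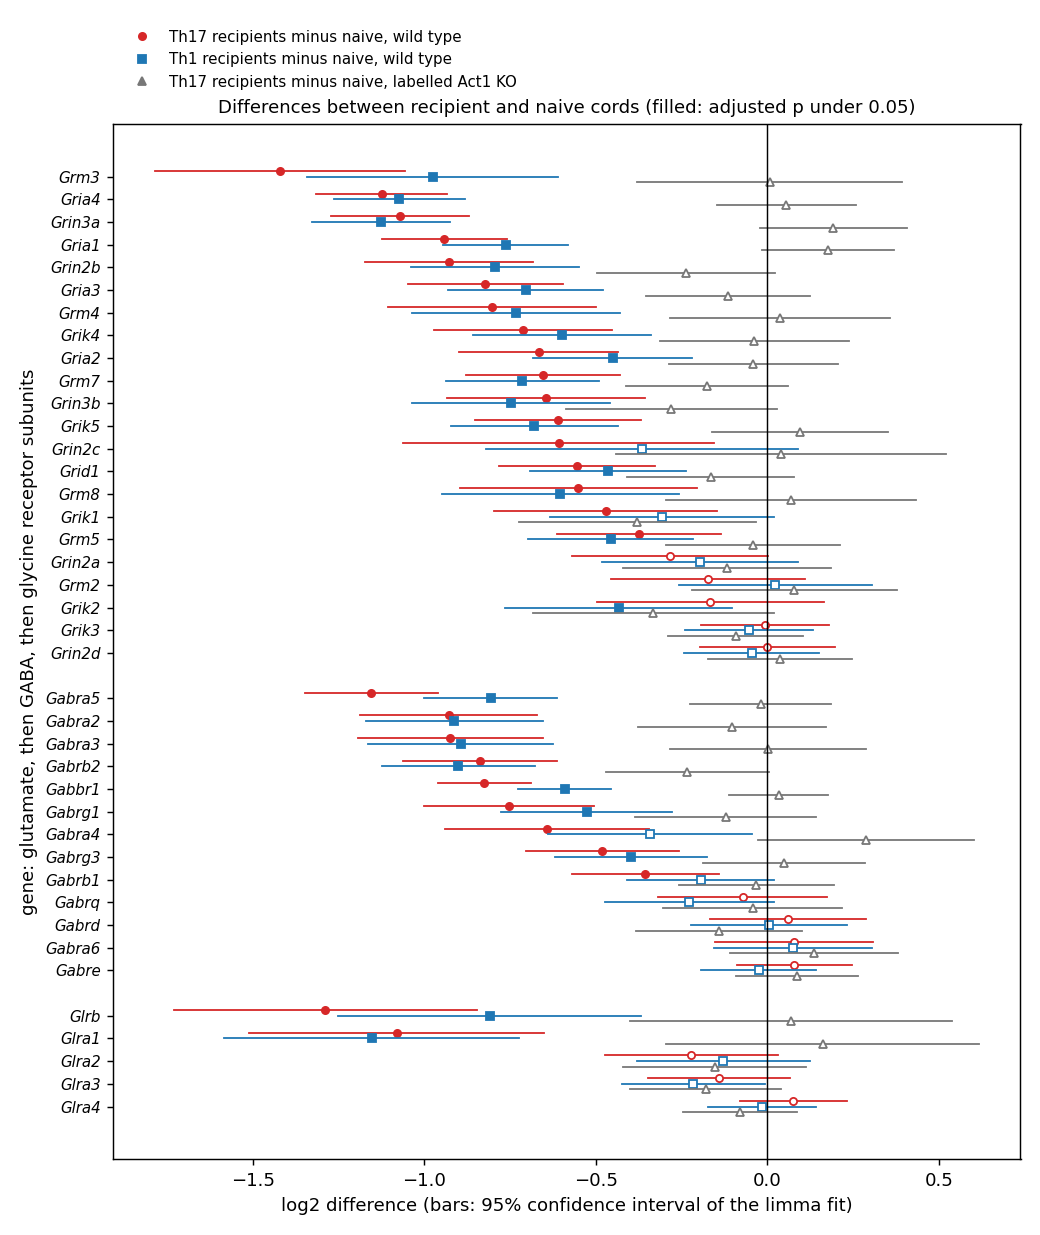
Log2 difference of each of the 40 receptor genes between Th17 recipients and naive wild-type mice (red circles), Th1 recipients and naive wild-type mice (blue squares), and Th17 recipients and naive mice labelled Act1 KO (grey triangles), with 95% confidence intervals. Filled symbols have an adjusted p under 0.05. Red and blue symbols lie mostly left of 0 and down to −1.42, while the grey ones lie between −0.38 and 0.29. With each array centred on neuronal genes, 14 of the red and 16 of the blue differences are called higher, where 82.8% and 84% of all genes are.

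The receptor genes that fell most in Th17 recipients were Grm3 for glutamate, Gabra5 for GABA and Glrb for glycine, and Gria4 had the largest fall among the ion channels for glutamate. The 250 bases before the start of these 4 genes are printed because the genes moved together and carry the largest differences. They are RefSeq sequences of GRCm38.p6, written 5′ to 3′ on the strand of the gene, with the GC box GGGCGG or its complement CCGCCC in capitals. All 4 genes lie on the minus strand, Grm3 at chr5:9725353-9725602, Glrb at chr3:80913661-80913910, Gabra5 at chr7:57510060-57510309 and Gria4 at chr9:4796235-4796484.
Grm3: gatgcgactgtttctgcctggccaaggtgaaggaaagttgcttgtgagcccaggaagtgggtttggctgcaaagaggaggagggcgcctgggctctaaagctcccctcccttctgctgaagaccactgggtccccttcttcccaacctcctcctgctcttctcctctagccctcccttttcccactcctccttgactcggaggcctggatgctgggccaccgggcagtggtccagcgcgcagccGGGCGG
Glrb: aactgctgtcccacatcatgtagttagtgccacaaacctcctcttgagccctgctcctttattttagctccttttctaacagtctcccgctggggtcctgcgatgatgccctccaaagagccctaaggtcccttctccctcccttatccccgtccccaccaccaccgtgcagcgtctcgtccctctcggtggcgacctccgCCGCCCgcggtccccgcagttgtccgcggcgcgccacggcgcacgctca
Gabra5: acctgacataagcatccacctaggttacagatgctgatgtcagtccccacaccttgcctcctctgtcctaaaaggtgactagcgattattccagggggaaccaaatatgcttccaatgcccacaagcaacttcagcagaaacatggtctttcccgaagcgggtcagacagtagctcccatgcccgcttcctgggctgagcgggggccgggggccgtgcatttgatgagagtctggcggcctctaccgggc
Gria4: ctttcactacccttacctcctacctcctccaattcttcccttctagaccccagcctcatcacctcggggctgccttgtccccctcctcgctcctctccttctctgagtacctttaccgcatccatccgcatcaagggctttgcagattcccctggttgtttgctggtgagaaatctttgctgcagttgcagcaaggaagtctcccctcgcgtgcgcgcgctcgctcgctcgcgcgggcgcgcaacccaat
The Grm3 and Glrb windows hold 1 GC box each and those of Gabra5 and Gria4 none. None of the 4 holds the TATA box TATAAA or the cyclic AMP response element TGACGTCA on either strand. Of the 40 receptor genes 29 have such a window, and 18 of these (62.1%) hold a GC box, against 32.9% of the windows of all 27025 genes. The windows of the receptor genes also had more G and C, with a median of 62.4% against 52% over all genes. The GC box was present in 12 of the 19 genes with a window that fell in Th17 recipients and in 6 of the 10 that were not called. A TATA box stood in 4 of the 29 (13.8%, all genes 13%) and the cyclic AMP response element in none (all genes 1.62%). These motifs do not overlap in letters, and a match describes the window only.

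AMPA receptors carry most fast excitation, and in the deposited values the RNA of all 4 subunits fell in both kinds of recipient. With each array centred on pan-neuronal genes, Gria4 was called lower in both (−0.42 in Th17, −0.38 in Th1 recipients). Gria1 was called lower only in Th17 recipients (−0.23, against −0.07 in Th1 recipients), and Gria3 in neither (−0.11 and −0.01). Gria2 stood 0.04 higher in Th17 recipients, not called, and 0.24 higher in Th1 recipients, called. Gria4 stood at 9.20, 9.09, 9.05, 9.19 and 9.15 in the naive wild-type cords, at 8.06, 7.95, 7.77, 8.17 and 8.36 in the Th1 recipients and at 8.02, 8.02, 7.92, 7.93 and 8.16 in the Th17 recipients. It measured 9.11, 8.90, 9.25, 8.88 and 9.05 in the naive mice labelled Act1 KO and 8.95, 9.14, 9.09 and 9.20 in the Th17 recipients with that label. Every recipient with a wild-type label lay below every naive array, and the recipients labelled Act1 KO overlapped the naive arrays. Gria4 fell by 1.12 (SE 0.09, 2.18-fold, adjusted p = 1.13e-10) in Th17 and by 1.07 in Th1 recipients.

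Gria1 stood at 7.72, 8.11, 8.05, 8.08 and 7.997 in the naive wild-type cords, at 7.16, 7.05, 7.11, 7.44 and 7.37 in the Th1 recipients and at 7.02, 7.12, 7.01, 6.98 and 7.12 in the Th17 recipients. Its values were 8.04, 7.96, 8.04, 8.06 and 7.71 in the naive mice labelled Act1 KO and 8.17, 8.06, 8.19 and 8.14 in the Th17 recipients with that label. The lowest naive wild-type value (7.72) was above the highest value of either wild-type recipient group, and the difference in Th17 recipients was −0.94 (SE 0.09, adjusted p = 1.34e-09). Gria3 stood at 7.31, 7.29, 7.35, 7.29 and 7.22 in the naive wild-type cords, at 6.62, 6.65, 6.18, 6.76 and 6.73 in the Th1 recipients and at 6.55, 6.70, 6.22, 6.54 and 6.35 in the Th17 recipients. The same gene gave 7.25, 7.40, 7.49, 7.15 and 7.68 in the naive mice labelled Act1 KO and 7.25, 7.19, 7.48 and 7.21 in the Th17 recipients with that label. Gria3 fell by 0.82 in Th17 (SE 0.11, adjusted p = 5.95e-07) and by 0.70 in Th1 recipients, with no overlap with naive cords in either. Gria2, whose edited subunit limits the calcium entry of the channel, had the smallest fall of the 4, −0.67 in Th17 (SE 0.11) and −0.45 in Th1 recipients.

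Of the 5 kainate receptor genes 3 fell in Th17 and 3 in Th1 recipients, and so did the 1 delta receptor gene measured. Grik4 and Grik5, which encode the high-affinity kainate subunits, fell in both kinds of recipient, by 0.71 and 0.61 in Th17 and by 0.60 and 0.68 in Th1 recipients. Relative to neuronal genes, Grik5 stood 0.10 higher in Th17 and both genes stood higher in Th1 recipients, none of it called. Grik4 stood at 4.30, 3.81, 4.11, 4.25 and 4.15 in the naive wild-type cords, at 3.50, 3.25, 3.49, 3.72 and 3.68 in the Th1 recipients and at 3.30, 3.45, 3.58, 3.32 and 3.41 in the Th17 recipients. The values were 4.16, 4.04, 4.09, 4.60 and 3.91 in the naive mice labelled Act1 KO and 4.16, 3.90, 4.50 and 3.94 in the Th17 recipients with that label. The Th17 recipients lay near the background, so the fall of Grik4 is a lower bound. Grik5 stood at 6.50, 6.57, 6.64, 6.24 and 6.32 in the naive wild-type cords, at 5.56, 5.83, 5.71, 5.76 and 6.03 in the Th1 recipients and at 5.93, 5.68, 5.77, 6.14 and 5.69 in the Th17 recipients. It gave 6.62, 6.59, 6.06, 6.22 and 6.53 in the naive mice labelled Act1 KO and 6.56, 6.35, 6.70 and 6.39 in the Th17 recipients with that label. Neither wild-type recipient group overlapped the naive wild-type cords for either gene. Among the low-affinity kainate subunits, Grik1 was called in Th17 (−0.47, adjusted p = 0.0168) and not in Th1 recipients (−0.31, adjusted p = 0.132), and Grik2 the reverse (−0.17 and −0.43, adjusted p = 0.456 and 0.0325). Centred on neuronal genes, both turned. Grik1 stood 0.24 higher in Th17 recipients, not called, and 0.38 higher in Th1 recipients, called. Grik2 stood 0.54 higher in Th17 recipients, called, and 0.26 higher in Th1 recipients, not called. Between Th17 and Th1 recipients neither Grik1 nor Grik2 passed the test (adjusted p = 0.843 and 0.594). Grik3 lay at the background in all groups, with a difference of −0.01 in Th17 recipients, and a dimmer probe set of it gave −0.33.

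Grid1, a delta subunit that binds cerebellins at synapses, was dim everywhere. Grid1 stood at 3.61, 3.51, 3.47, 3.87 and 3.48 in the naive wild-type cords, at 3.18, 2.99, 3.12, 3.21 and 3.12 in the Th1 recipients and at 2.89, 3.23, 2.66, 3.25 and 3.14 in the Th17 recipients. The corresponding values were 3.73, 3.57, 3.70, 3.75 and 3.52 in the naive mice labelled Act1 KO and 3.51, 3.22, 3.43 and 3.80 in the Th17 recipients with that label. Its fall of 0.56 in Th17 recipients (SE 0.11, adjusted p = 0.000155) ended below the array medians, as did that of 0.46 in Th1 recipients. Centred on neuronal genes Grid1 stood 0.15 and 0.23 higher, not called in either.

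NMDA receptors need a GluN1 subunit, whose gene is not analysed here, and take further subunits of the GluN2 and GluN3 kinds. Grin3a, which lowers the calcium permeability of the channel, had the largest fall of the 6 genes measured. Grin3a stood at 6.98, 7.17, 7.31, 6.998 and 6.99 in the naive wild-type cords, at 5.90, 5.92, 6.02, 5.93 and 6.04 in the Th1 recipients and at 6.05, 6.03, 5.98, 5.97 and 6.06 in the Th17 recipients. The other values were 6.92, 6.98, 6.78, 6.88 and 6.41 in the naive mice labelled Act1 KO and 6.73, 7.08, 7.22 and 6.93 in the Th17 recipients with that label. The Th1 and Th17 values overlapped each other, all of them between 5.90 and 6.06, and the lowest naive wild-type value was 6.98. Grin3a fell by 1.07 in Th17 (SE 0.10, adjusted p = 8.45e-10) and by 1.13 in Th1 recipients. Its 2 other probe sets gave −0.92 and −1.05 in Th17 recipients. Grin2b, the subunit of slow juvenile NMDA receptors, also fell in both, by 0.93 and 0.79, although its 2 dimmer probe sets at the background gave 0.02 and −0.16. Grin3b, the other GluN3 subunit, fell by 0.64 and 0.75 into the background. Grin2c, a GluN2 subunit found in astrocytes as well as neurons, was called in Th17 (−0.61, adjusted p = 0.0265) and not in Th1 recipients (−0.37). The GluN2 subunit genes Grin2a (−0.28) and Grin2d (0.00) were not called in Th17 recipients and lay at the background. Centred on neuronal genes, Grin3b and Grin2c stood 0.06 and 0.10 higher in Th17 recipients, neither called.

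Among the metabotropic receptors, Grm3 had the largest fall of all 40 genes. Grm3 encodes a receptor coupled to inhibitory G proteins that both neurons and astrocytes carry. Grm3 stood at 7.46, 7.61, 7.48, 7.39 and 7.48 in the naive wild-type cords, at 6.29, 6.22, 6.34, 6.91 and 6.78 in the Th1 recipients and at 6.33, 6.15, 6.11, 5.30 and 6.43 in the Th17 recipients. The values stood at 7.18, 7.39, 7.57, 7.36 and 7.55 in the naive mice labelled Act1 KO and 7.58, 6.82, 7.71 and 7.57 in the Th17 recipients with that label. Naive wild-type cords spanned 7.39 to 7.61, and the highest wild-type recipient reached 6.91. The fall was 2.68-fold in Th17 recipients (−1.42, SE 0.18, adjusted p = 2.06e-07) and 1.97-fold in Th1 recipients (−0.98). The presynaptic receptors Grm4, Grm7 and Grm8 fell by 0.80, 0.65 and 0.55 in Th17 and by 0.73, 0.71 and 0.60 in Th1 recipients, Grm8 into the background and, for Grm7 and Grm8, 0.05 and 0.16 higher, not called, in Th17 recipients once centred on neuronal genes. Grm5, which is coupled to phospholipase C, fell less, by 0.37 and 0.46, and was called higher (0.33) in Th17 recipients relative to neuronal genes. Grm2, a presynaptic relative of Grm3, was at the background, with differences of −0.17 and 0.02.

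**Figure D2:**
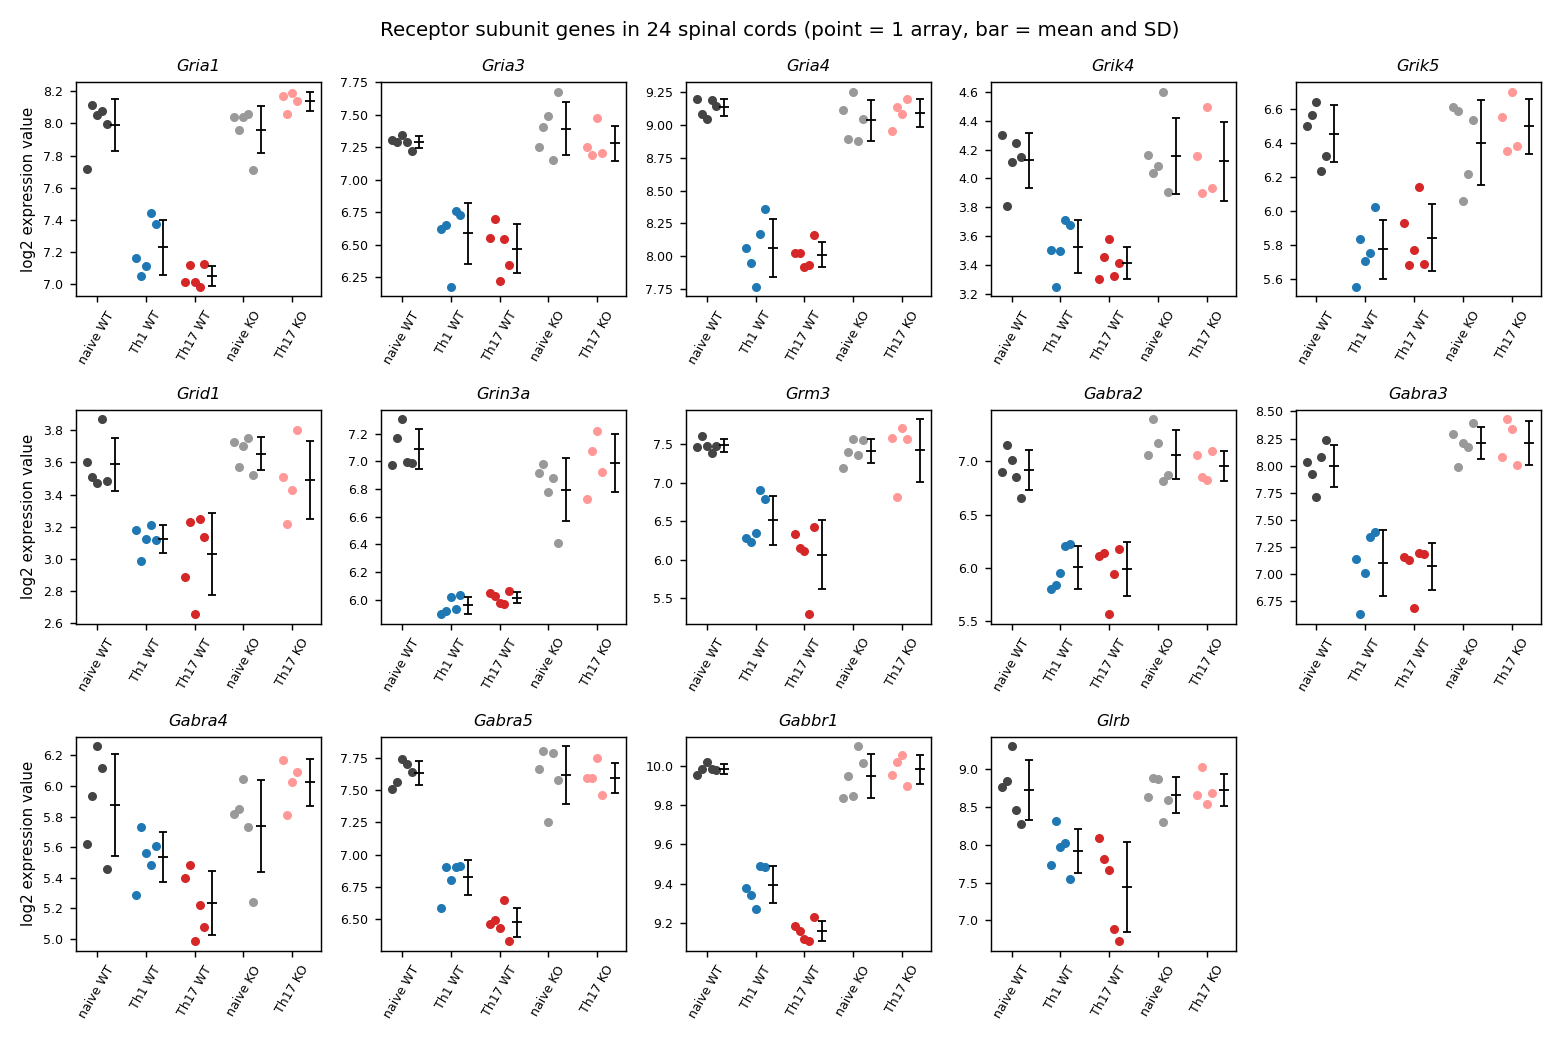
Log2 values of the 14 receptor genes described array by array, in naive wild-type mice, Th1 and Th17 wild-type recipients, and naive mice and Th17 recipients labelled Act1 KO. Each point is 1 array and the bars are the mean and SD. Apart from Gabra4, and Glrb in Th1 recipients, the Th1 and Th17 points lie below the naive wild-type ones, for Grm3 for example at most 6.91 against at least 7.39, and the recipients labelled Act1 KO overlap the naive mice, with 1 array below all naive mice for Grm3 (6.82) and 2 for Grid1 (3.22 and 3.43). Each panel has its own axis, which does not start at 0.

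GABA-A receptors are chloride channels whose α subunit sets the response to GABA and to benzodiazepines. Of the 12 subunit genes measured 8 fell in Th17 and 6 in Th1 recipients. Gabra5, which forms extrasynaptic receptors, fell most. Gabra5 stood at 7.51, 7.56, 7.74, 7.70 and 7.64 in the naive wild-type cords, at 6.59, 6.90, 6.81, 6.91 and 6.91 in the Th1 recipients and at 6.47, 6.50, 6.44, 6.65 and 6.33 in the Th17 recipients. It stood at 7.66, 7.80, 7.25, 7.78 and 7.58 in the naive mice labelled Act1 KO and 7.59, 7.59, 7.74 and 7.46 in the Th17 recipients with that label. Naive wild-type arrays did not go below 7.51 and wild-type recipients did not exceed 6.91. The fall was 2.23-fold in Th17 (−1.15, SE 0.09, adjusted p = 9.06e-11) and 1.75-fold in Th1 recipients.

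Gabra2 and Gabra3, the α subunits of synaptic receptors in the dorsal horn, fell in both kinds of recipient. Gabra2 stood at 6.90, 7.15, 7.02, 6.85 and 6.65 in the naive wild-type cords, at 5.80, 5.84, 5.95, 6.21 and 6.23 in the Th1 recipients and at 6.11, 6.14, 5.57, 5.94 and 6.17 in the Th17 recipients. Its other values were 7.06, 7.40, 7.17, 6.82 and 6.87 in the naive mice labelled Act1 KO and 7.06, 6.86, 6.83 and 7.10 in the Th17 recipients with that label. The 10 wild-type recipients reached at most 6.23 and all other arrays at least 6.65. Gabra3 stood at 8.03, 7.92, 7.71, 8.08 and 8.24 in the naive wild-type cords, at 7.14, 6.63, 7.01, 7.34 and 7.39 in the Th1 recipients and at 7.16, 7.13, 6.69, 7.19 and 7.19 in the Th17 recipients. In addition it gave 8.29, 7.99, 8.21, 8.18 and 8.39 in the naive mice labelled Act1 KO and 8.08, 8.43, 8.34 and 8.003 in the Th17 recipients with that label. For both genes naive and recipient wild-type arrays did not overlap. Gabra2 fell by 0.93 and 0.91 and Gabra3 by 0.92 and 0.89 in Th17 and Th1 recipients (SE 0.13 for either in Th17 recipients). Gabra4, an α subunit of extrasynaptic receptors, was less clear. Gabra4 stood at 5.62, 5.93, 6.26, 6.11 and 5.46 in the naive wild-type cords, at 5.29, 5.73, 5.56, 5.48 and 5.61 in the Th1 recipients and at 5.40, 5.49, 4.99, 5.22 and 5.08 in the Th17 recipients. This gene also gave 5.82, 5.85, 6.04, 5.73 and 5.24 in the naive mice labelled Act1 KO and 6.17, 5.81, 6.03 and 6.09 in the Th17 recipients with that label. Gabra4 overlapped between naive and Th17 cords (highest Th17 value 5.49, lowest naive value 5.46) and its fall of 0.64 passed the test (adjusted p = 0.000589), while −0.34 in Th1 recipients did not (adjusted p = 0.061). Its dimmer probe set gave −0.19 in Th17 recipients (adjusted p = 0.354 over all probe sets), and centred on neuronal genes Gabra4 stood 0.07 higher in Th17 recipients, not called, and 0.35 higher in Th1 recipients, called.

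Among the β and γ subunits, which complete the channel, Gabrb2 fell by 0.84 in Th17 and 0.90 in Th1 recipients, and its 4 other probe sets fell in Th17 recipients too, by 0.48 to 1.16. Gabrb1 fell less, by 0.36 in Th17 recipients, was not called in Th1 recipients (−0.19) and was called higher in both relative to neuronal genes (0.35 and 0.50). Gabrg1 fell by 0.75 and 0.53, with a value above 0 in Th1 recipients relative to neuronal genes, and Gabrg3 by 0.48 and 0.40 near the background, called higher in Th1 recipients relative to neuronal genes. A dimmer probe set of Gabrg3, at the background, gave −0.05 in Th17 and −0.06 in Th1 recipients. Gabra6 (0.08), Gabrd (0.06), Gabre (0.08) and Gabrq (−0.07) were not called and had means of 2.62 to 3.13 in naive wild-type cords, at the background. Genes above and below 3.52 lie side by side in the genome. Gabrg1, Gabra2, Gabra4 and Gabrb1 follow each other on chromosome 5, with Cox7b2 between the middle pair, and had differences of −0.75, −0.93, −0.64 and −0.36 in Th17 recipients. On the X chromosome Gabra3 (−0.92) lies between Gabre and Gabrq, on chromosome 11 Gabrb2 (−0.84) beside Gabra6, and on chromosome 7 Gabra5 (−1.15) beside Gabrg3 (−0.48).

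Gabra2 was read by 2 probe sets that fell by different amounts. The second gave 6.85, 6.89, 6.81, 6.91 and 6.89 in naive wild-type cords, 5.07, 4.94, 4.97, 5.72 and 5.03 in Th1 recipients and 4.97, 4.51, 4.67, 4.75 and 4.95 in Th17 recipients. Its fall in Th17 recipients was 2.10, against 0.93 for the first probe set. The difference between the falls was −1.17 (exact permutation p = 0.00794, two-sided, the smallest that 5 arrays against 5 allow), with an adjusted p of 0.135 over the 17 pairs of probe sets compared. Which transcripts each probe set reads is not given in the sources used here. Among the other 16 pairs no adjusted p was below 0.18, and the second probe set of Gabra2 is the one that fell most among all probe sets of the receptor genes.

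**Figure D3:**
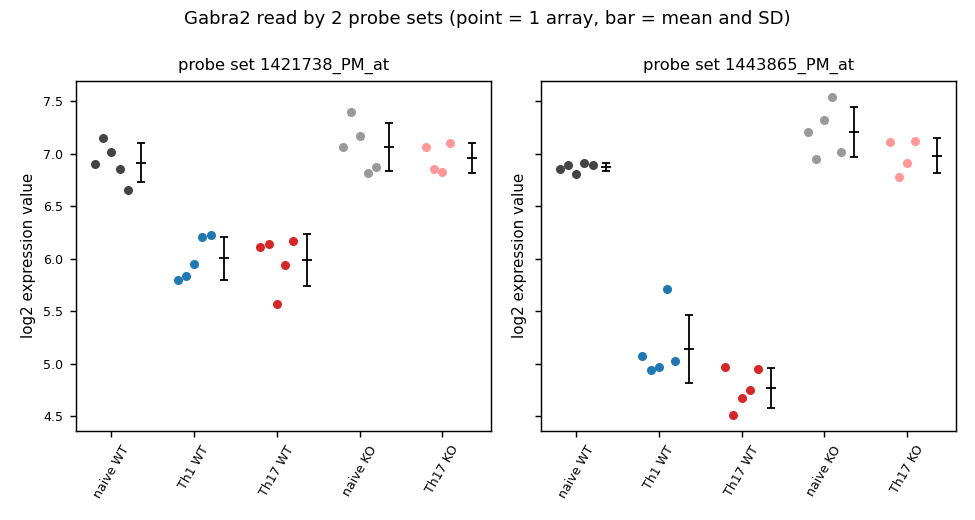
Log2 values of Gabra2 by its 2 probe sets in the 5 groups, with 1 point per array and bars for the mean and SD. Levels are not comparable between the panels. In both, wild-type recipients lie below all other arrays, and the fall of the Th17 recipients is 0.93 for the first and 2.10 for the second probe set.

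Gabbr1, a subunit of the metabotropic GABA-B receptor that binds GABA, fell in both kinds of recipient. Gabbr1 stood at 9.95, 9.98, 10.02, 9.98 and 9.98 in the naive wild-type cords, at 9.38, 9.34, 9.27, 9.49 and 9.48 in the Th1 recipients and at 9.18, 9.16, 9.12, 9.11 and 9.23 in the Th17 recipients. It gave values of 9.84, 9.95, 9.84, 10.10 and 10.02 in the naive mice labelled Act1 KO and 9.95, 10.02, 10.06 and 9.90 in the Th17 recipients with that label. The 5 Th17 values lay below the 5 Th1 values, and these below all naive values. Gabbr1 fell by 0.82 in Th17 (SE 0.07, adjusted p = 5.3e-11) and by 0.59 in Th1 recipients, but in the latter stood 0.10 higher, not called, relative to neuronal genes. A second probe set fell by 0.82 in Th17 recipients, while another, at the background, gave −0.04.

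Of the glycine receptor genes, Glrb and Glra1 fell. Glrb encodes the β subunit, through which gephyrin holds the receptor at synapses, and Glra1 the α subunit of adult spinal receptors, whose mutation causes startle disease. Glrb stood at 8.77, 8.84, 9.30, 8.46 and 8.27 in the naive wild-type cords, at 7.73, 8.32, 7.97, 8.02 and 7.55 in the Th1 recipients and at 8.09, 7.81, 7.67, 6.89 and 6.73 in the Th17 recipients. For this gene the values were 8.63, 8.88, 8.87, 8.30 and 8.59 in the naive mice labelled Act1 KO and 8.66, 9.02, 8.53 and 8.68 in the Th17 recipients with that label. Th17 recipients 4 and 5 (6.89 and 6.73) lay well below the other 3, and the highest Th17 value (8.09) was below the lowest naive one (8.27), whereas Th1 recipients overlapped the naive cords. Glrb fell 2.44-fold in Th17 (−1.29, SE 0.21, adjusted p = 1.57e-05) and 1.75-fold in Th1 recipients (adjusted p = 0.00316). Glra1 fell by 1.08 (SE 0.21) and 1.15, without overlap. The other α subunit genes, Glra2 (−0.22), Glra3 (−0.14) and Glra4 (0.08) were not called in Th17 recipients, all near the background. Glrb lies next to Gria2 on chromosome 3, and Glra1 is separated from Gria1 on chromosome 11 by Nmur2.

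Between Th17 and Th1 recipients 2 of the 40 genes were called lower and none higher, where 3.00% of all genes were called, 1.09% lower and 1.91% higher. These were Gabra5 (−0.35, SE 0.09, adjusted p = 0.0399) and Gabbr1 (−0.23, SE 0.07, adjusted p = 0.0495), close to the threshold. Neither was called once Th1 recipients 4 and 5 were left out (adjusted p = 0.298 and 0.459), and under the 26 alternatives tried for each, Gabra5 was lost in 19 and Gabbr1 in 22. Some of these losses could not have come out otherwise. Both differences are smaller than the 1.5-fold threshold. The adjusted exact Mann-Whitney test can call a gene only if very many genes reach its smallest p together. Grm3 (−0.45, 95% interval −0.81 to −0.08) and Glrb (−0.48, −0.92 to −0.04) had larger differences that did not pass the test (adjusted p = 0.248 and 0.344). Within the 3 letters of the title code shared by both groups, Glrb was higher in Th17 recipients each time (0.08 to 0.12). Grm3 was lower in each (−0.67 to −0.005). The letters of Th17 recipients 4 and 5, which had the low Glrb values, held no Th1 array. The median over the 40 genes was −0.06.

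In mice labelled Act1 KO no receptor gene was called between Th17 recipients and naive mice, and no gene of all 17097 was (0%). Without adjustment 1070 of all genes and 1 receptor gene, Grik1 (−0.38, adjusted p = 0.747), had a limma p under 0.05. The methods' t-test and the exact Mann-Whitney test each gave 1 receptor gene without adjustment. The 40 differences ran from −0.38 to 0.29 (Gabra4) with a median of −0.03, and their 95% intervals lay within −0.72 and 0.62. For Grm3 the difference was 0.01 (interval −0.38 to 0.39), for Gabra5 −0.02 (−0.22 to 0.19) and for Glrb 0.07 (−0.40 to 0.54). The leukocyte markers of these recipients were at the naive level, as given above, and their part in this result was not tested.

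The Th17 response itself was then compared between genotype labels. Its difference, coded as wild type minus labelled Act1 KO, was called for 21 of the 40 genes, in each case with the more negative difference in wild-type mice, against 32.0% of all genes, 18.2% lower and 13.8% higher. All 21 were among the 28 that fell in wild-type Th17 recipients, which is no separate result, since both tests use the same wild-type arrays. The largest were Grm3 (−1.43, SE 0.26, adjusted p = 8.75e-05), Glrb (−1.36, SE 0.31), Grin3a (−1.26, SE 0.14), Glra1 (−1.24, SE 0.30) and Gria4 (−1.18, SE 0.14). By family they were all 4 AMPA genes, 2 of 5 kainate, 2 of 6 NMDA, 3 of 6 metabotropic, 7 of 12 GABA-A, 2 of 5 glycine genes and Gabbr1. With the letter of the title code as a block 15 were called, and Gria3 (−0.30, adjusted p = 0.394) and Grik5 (−0.43, adjusted p = 0.097) were among those lost. The 7 genes that fell in wild-type Th17 recipients without passing this test were Grik1, Grid1, Grin2c, Grin3b, Grm5, Grm8 and Gabrb1. Between naive mice of both labels none of the 40 was called by limma or the methods' t-test (limma, all genes 0.585%, 0.421% lower and 0.164% higher). The exact Mann-Whitney test called none either. With 5 arrays against 5 its adjusted p can pass only if very many genes reach its smallest p together, so this adds no support. Without adjustment 3 of the 40 had a limma p under 0.05, Grin3a (−0.29), Grm4 (−0.33) and Gabrd (0.24). Naive and Th17 arrays labelled Act1 KO share no letter of the title code, so no value within letters exists for them.

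The RNA of genes for proteins that hold or modulate the receptors was measured as well. Of 25 genes for partners of glutamate receptors 17 fell in Th17 recipients and none rose (median −0.46), among them the AMPA receptor auxiliary protein stargazin, Cacng2 (−0.84), the pentraxin Nptx1 (−0.87), the scaffold Homer2 (−0.80) and the cerebellin Cbln2 (−0.89). In Th1 recipients 16 fell. Of 14 genes for partners of GABA and glycine receptors 10 fell and 1 rose (median −0.55). The chloride importer Slc12a2 fell by 1.03 and the chloride exporter of neurons, Slc12a5, by 0.86 (adjusted p = 7.94e-07), while gephyrin, Gphn, fell by 0.86. Ubqln1, which favours the insertion of GABA-A receptors into the membrane, fell by 0.55, and Gabarapl2, a relative of Gabarap, by 0.57. Gabarap, which binds GABA-A receptors and serves in autophagy, rose by 0.60 in Th17 and 0.57 in Th1 recipients. Of 7 genes of transmitter synthesis and uptake 4 fell, among them the glycine transporter Slc6a9 (−1.14), the glutamate transporter Slc1a1 (−0.79), glutamate dehydrogenase Glud1 (−0.80) and GABA transaminase Abat (−0.82). The astrocyte glutamate transporter Slc1a2 rose by 0.68 (adjusted p = 2.07e-06) and Slc1a3 by 0.25, the latter from the background. In Th17 recipients labelled Act1 KO none of these 46 genes was called.

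Markers of neurons and of the oligodendrocyte lineage mostly fell with the receptor genes, while leukocyte markers rose and astrocyte markers were mixed. Of 18 pan-neuronal genes 17 fell in Th17 recipients (median −0.72), and their mean level went from 10.3 to 10.4 in naive wild-type cords to 9.58 to 9.71 in Th17 and 9.55 to 9.79 in Th1 recipients. In Th17 recipients labelled Act1 KO it was 10.3 to 10.4. Of 10 genes that mark neurons by transmitter 8 fell, with the largest difference for the acetylcholine vesicle transporter of motor neurons, Slc18a3 (−1.66), followed among those named by the glycine transporter Slc6a5 (−1.01), the inhibitory vesicle transporter Slc32a1 (−0.84) and the glutamate vesicle transporter Slc17a6 (−0.66). All 7 oligodendrocyte and 4 of 5 precursor genes fell. Of 6 astrocyte genes 2 fell, Fgfr3 (−1.62) and Gja1 (−0.65), and 3 rose, among them Gfap (0.59) and Aldh1l1 (0.80). Of 5 microglial genes 4 rose and P2ry12 fell (−0.89), and all 13 leukocyte genes rose. Of 7 Hox genes, which mark the spinal cord and had a mean level of 6.85 to 7.07 in naive wild-type cords, 6 fell. Markers of dorsal root ganglion, muscle, Schwann cells and forebrain lay near the background and none was called in Th17 recipients (lowest limma adjusted p = 0.227). The part of any of these cells in the differences of receptor genes was not tested.

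Relative to the pan-neuronal genes, 6 of the 40 receptor genes were called lower and 14 higher in Th17 recipients. All 6 lower genes but only 3 of the 14 higher ones lay above 3.52. The 25 receptor genes above 3.52 had a mean level of 6.75 to 6.84 in naive wild-type cords, 5.99 to 6.29 in Th1 and 5.89 to 6.07 in Th17 recipients. Their distance from the pan-neuronal mean was −3.62 to −3.51 in naive, −3.68 to −3.44 in Th1 and −3.73 to −3.64 in Th17 cords. With each array centred on the 18 pan-neuronal genes the median of all genes moved to 0.66 in Th17 and 0.63 in Th1 recipients, and 2.65% of all genes were called lower and 82.8% higher in Th17 recipients. Of the 28 receptor genes called lower in the deposited values, 6 were still lower, 2 were higher and 20 were not called. The 6 were Grm3 (−0.71, SE 0.16, adjusted p = 0.000166), Glrb (−0.58, SE 0.21), Gabra5 (−0.45, SE 0.11), Gria4 (−0.42, SE 0.08), Grin3a (−0.36, SE 0.10) and Gria1 (−0.23, SE 0.09), and the 2 were Grm5 and Gabrb1. The other 12 genes called higher had not been called in the deposited values. In Th1 recipients 3 receptor genes were lower on this scale, Glra1 (−0.46), Grin3a (−0.44) and Gria4 (−0.38), and 16 were higher, 12 of which lay below 3.52. Of all genes 1.7% were called lower and 84% higher in that comparison. For the difference between genotype labels 5 receptor genes were lower and 13 higher, and of all genes 1.89% and 74.8%.

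**Figure D4:**
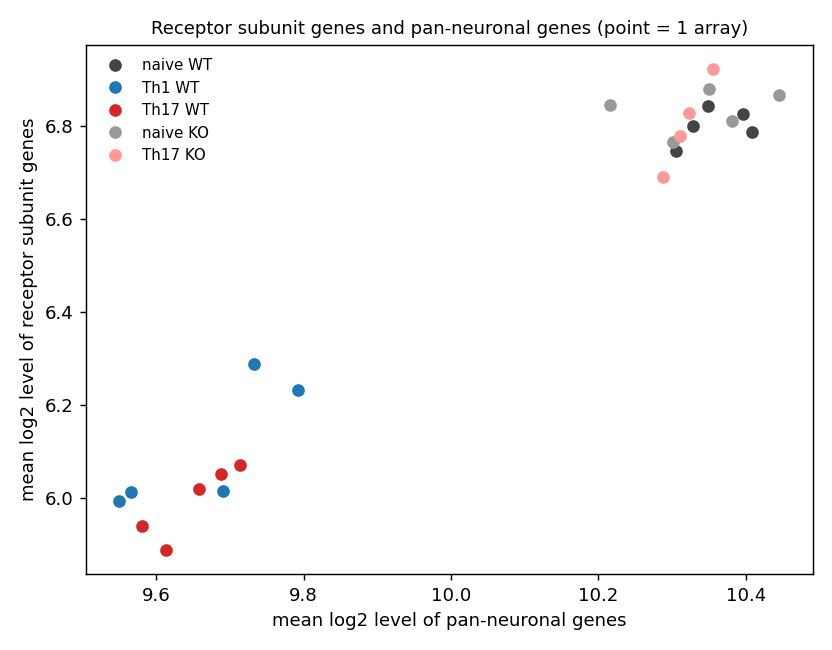
Mean log2 level of the 25 receptor genes above 3.52 against the mean of 18 pan-neuronal genes, with 1 point per array. The wild-type Th1 and Th17 recipients lie at 9.55 to 9.79 on the neuronal axis and at 5.89 to 6.29 on the receptor axis, apart from the naive mice and from the Th17 recipients labelled Act1 KO. The axes do not start at 0.

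**Figure D5:**
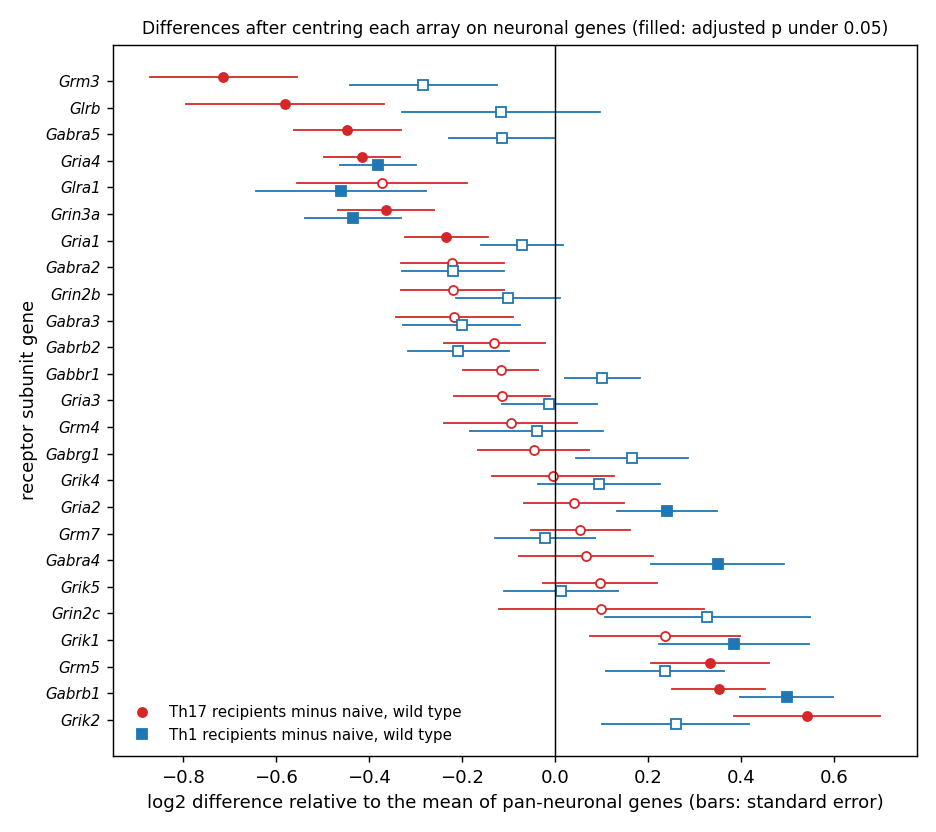
Log2 difference of the 25 receptor genes above 3.52 from naive wild-type cords after each array was centred on the pan-neuronal genes, for Th17 (red circles) and Th1 recipients (blue squares), with standard errors. Filled symbols have an adjusted p under 0.05. Grm3, Glrb, Gabra5, Gria4, Grin3a and Gria1 are called lower in Th17 recipients, down to −0.71, and Grik2, Gabrb1 and Grm5 higher.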

How the data were processed

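Whole spinal cord RNA of 24 mice had been hybridized to Affymetrix HT MG-430 PM arrays, 1 array per mouse. The deposited log2 values had been computed by the authors from the scanned arrays with RMA, which corrects background, quantile normalizes and summarizes probes, as their processing notes name it, with no version given. Of 45118 probe sets, 28898 carried 1 gene symbol in the platform annotation, 551 several and 15669 were not listed there. The probe set with the highest mean stood for each of 17097 genes. All 24 arrays entered 1 fit in limma 3.58.1 (R 4.3.3) with no covariate, and two-sided p-values were adjusted by Benjamini-Hochberg over all genes and called below 0.05. The fit was tested on simulated data. The groups came from the labels, and the mice of a group were the replicates. Alternatives covered probe sets, dim genes, array scaling, array weights, variance model, replicate number and title letter as blocks, left-out mice, other tests and a fold threshold. The number of arrays limits the precision. The receptor genes and lists were chosen with earlier results of these data known. Values per array were given for the gene with the largest fall of each family and those called in the other comparisons (at most 12 by adjusted p), and from each other list the 4 genes with the smallest adjusted p. Gphn, Gabarap, Slc1a2, Slc1a3 and P2ry12 were named after their values were seen. Promoter windows came from RefSeq, and protein sequences and genome coordinates of probe sets were not used here.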

Additional observations from a re-analysis of the deposited data

Results flagged for a closer look

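The Th17 response differed between the genotype labels for 21 receptor genes, by the test of the difference itself in limma (adjusted p under 0.05). Coded as wild type minus Act1 KO, the log2 difference was −1.12 for Gria1, −0.626 for Gria2, −0.709 for Gria3 and −1.18 for Gria4, the AMPA receptor genes. It was −0.675 for Grik4, −0.706 for Grik5, −0.69 for Grin2b and −1.26 for Grin3a, and among the metabotropic genes −1.43 for Grm3, −0.84 for Grm4 and −0.478 for Grm7. For the GABA receptor genes it was −0.826 for Gabra2, −0.927 for Gabra3, −0.929 for Gabra4, −1.14 for Gabra5, −0.606 for Gabrb2, −0.633 for Gabrg1, −0.53 for Gabrg3 and −0.858 for Gabbr1. The glycine receptor genes Glra1 and Glrb had values of −1.24 and −1.36. The leukocyte markers and Traf3ip2 differ between the same groups as given above, and their part was not tested.

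In 5 of 70 groups of arrays looked at for the 14 genes with values per array, 1 array stood apart from the others of its group by Dixon's test, where chance gives about 1 in 20. These were Gabra3 in Th17 recipient 3 (6.687), Gria3 in Th1 recipient 3 (6.175), Grm3 in Th17 recipient 4 (5.295), Gria1 in naive mouse 5 labelled Act1 KO (7.707) and Grm3 in Th17 recipient 2 labelled Act1 KO (6.815).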

How the results depend on the processing

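Array scaling moved the counts most. With each array centred on the pan-neuronal genes, 6 receptor genes were lower and 14 higher in Th17 recipients, 3 lower and 16 higher in Th1 recipients, none was called between these, and 5 were lower and 13 higher for the difference between genotype labels. On that scale the sign turned for 12 of the 28 genes that fell in Th17 recipients, Gabra4 (0.065), Gabrb1 (0.35), Gabrg3 (0.23), Gria2 (0.041), Grid1 (0.15), Grik1 (0.24), Grik5 (0.10), Grin2c (0.099), Grin3b (0.063), Grm5 (0.33), Grm7 (0.053) and Grm8 (0.16). In Th1 recipients it turned for 10 of 25, Gabbr1 (0.10), Gabrg1 (0.16), Gabrg3 (0.29), Gria2 (0.24), Grid1 (0.23), Grik2 (0.26), Grik4 (0.094), Grik5 (0.012), Grm5 (0.23) and Grm8 (0.089), and in the difference between labels for 6 of 21, Gabrb2 (0.081), Gabrg1 (0.054), Gabrg3 (0.16), Gria2 (0.061), Grik4 (0.012) and Grm7 (0.21). With each array centred on its median, 38 genes were lower in Th1 recipients, and centred on ribosomal protein genes 40, with 33 for the difference between labels, where these scalings moved the median of all genes in Th1 recipients to −0.31 and −0.55. The share of all genes called lower under either scaling was not computed, so these counts show nothing particular to the receptor genes. The 2 calls between Th17 and Th1 recipients became 1 with the mean of all probe sets or with dim genes left out, and 0 with median, quantile, ribosomal or pan-neuronal scaling, the compared groups alone, the replicate block, the letter block, the exact Mann-Whitney test, the methods' t-test, the 1.5-fold threshold, or both Th1 recipients 4 and 5 left out, an alternative chosen after seeing the data. Leaving out 1 mouse at a time gave 26 to 29 lower genes in Th17 recipients, 24 to 25 in Th1 recipients, 0 to 1 between Th17 and Th1 recipients, 20 to 24 for the difference between labels and none in the comparisons within naive mice or within mice labelled Act1 KO, and no gene was higher in any. Without Th1 recipient 1, 3 or Th17 recipient 4 the count between Th17 and Th1 recipients was 1, and without any other mouse of these groups 0. The losses between Th17 and Th1 recipients under the 1.5-fold threshold and the exact Mann-Whitney test could not have come out otherwise, as given above. The cause of these changes was not tested. Replicate numbers were not taken to pair the mice in the main fit. The 46 same-number pairs had a median correlation of deviations of 0.041 (−0.29 to 0.44, 16 over 0.1). The 184 other pairs had a median of 0.014. For 5 of 24 arrays the best match in another group carried the same number. With the replicate block 28, 26, 0 and 23 genes were lower in the order of the comparisons above, and none within naive mice or within mice labelled Act1 KO. The difference between labels has no exact Mann-Whitney value. Signal near the background limits 15 of the 40 genes.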
